A study of Homo sapiens with 2 samples.

Results

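Fibronectin (FN1) and 9 other genes of matrix glycoproteins and of enzymes that crosslink the matrix were followed in Panc1 cells, a line grown from a human pancreatic duct carcinoma. The genes were FN1, FBLN1, SPARC, TNC, THBS1, THBS2, TGFBI, VCAN, LOX and LOXL2, chosen by name, and every probe set (a group of short probes that reads 1 transcript region) annotated to exactly 1 of these symbols was taken. This gave 38 of the 54675 probe sets for 10 of 19775 genes. Both populations were stable, were kept under hygromycin and were grown in standard culture. The mock population had been transfected with vector only. The syk population carried wild-type syk, which encodes a cytoplasmic tyrosine kinase. The series title calls the mock cells drug-resistant, and the labels do not say whether either population is 1 clone. With 1 array hybridised per population, no difference below has an error or a test.

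Fibronectin is secreted as a dimer and pulled into fibrils by integrins on the cell surface, and these fibrils form a scaffold on which collagens and other glycoproteins are laid down. Matricellular proteins such as SPARC, tenascin C and the thrombospondins sit in the matrix and act on cell adhesion more than on its structure. Lysyl oxidases crosslink collagen and elastin. In pancreatic tumours much of this matrix is made by stromal fibroblasts, and carcinoma cells make part of it too.

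LOXL2, FBLN1 and TGFBI had bright signal and were lower on the syk array. FN1 and THBS1 were higher, from mock levels only just above the brightest bacterial control. LOXL2 was 2.58-fold lower and FBLN1 2.35-fold lower by their brightest probe sets, and TGFBI and THBS1 differed by less than 2-fold. FN1 was 2.29-fold higher by a probe set open to cross-matching, and did not pass 2-fold without such sets. SPARC, TNC, THBS2, VCAN and LOX gave only dim signal on both arrays. Values are RMA levels on the log2 scale, where a difference of 1 is 2-fold, and differences are syk minus mock throughout.

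Because dim probe sets carry little information, levels were read against the 27 probe sets for bacterial transcripts, the brightest of which read 4.77. Of the 38 member probe sets, 10 lay above that level on both arrays, 2 on the syk array alone and 26 on neither. The 12 above it on 1 or both arrays belonged to FN1, FBLN1, THBS1, TGFBI and LOXL2. Among these 12, the syk value was higher in 6 and lower in 6. Of the 26 dim probe sets, 16 were higher, 7 were lower and 3 had exactly the same value on both arrays.

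**Figure D1:**
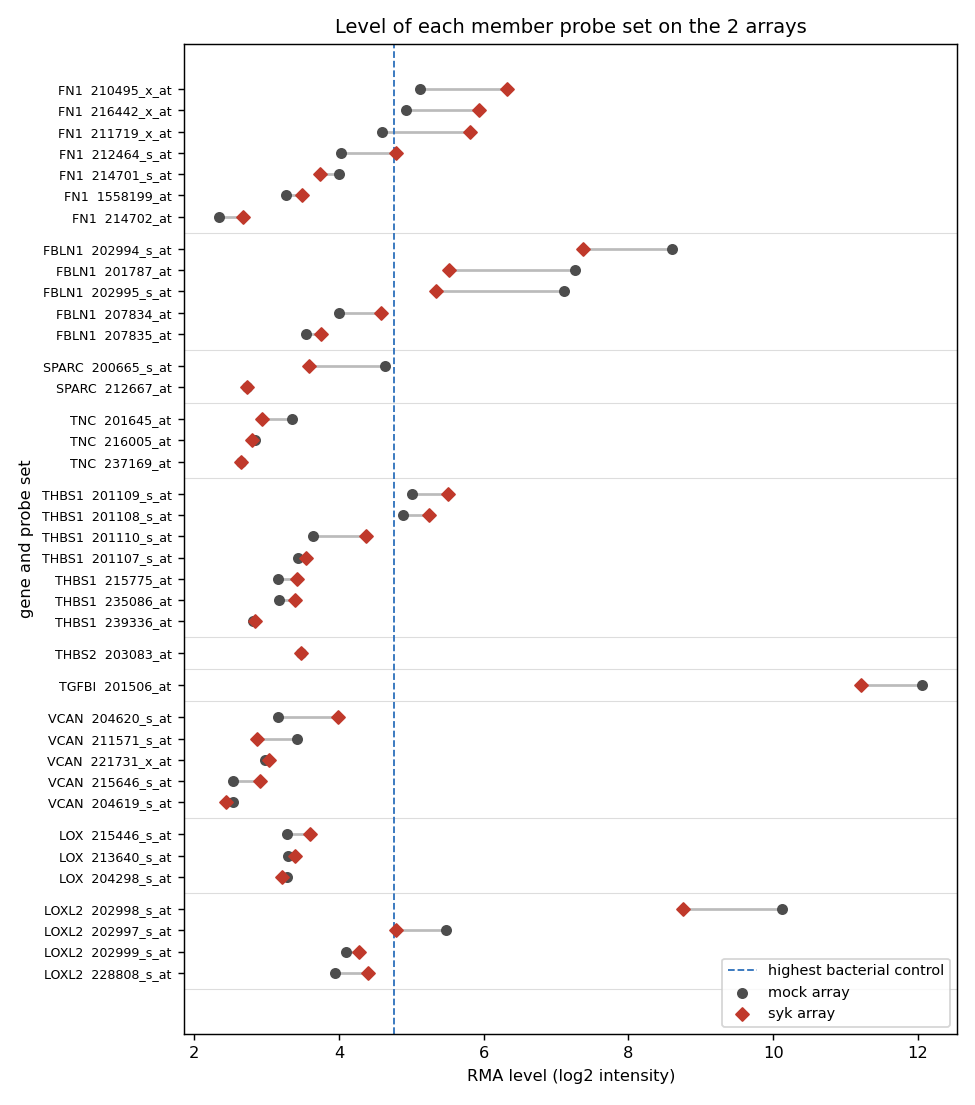
RMA level (log2 intensity, horizontal axis) of each of the 38 member probe sets on the mock array (grey circles) and the syk array (red diamonds), grouped by gene. Only probe sets of FN1, FBLN1, THBS1, TGFBI and LOXL2 reach past the dashed line at 4.77, the highest bacterial control, and the bright FBLN1 probe sets lie to the left on the syk array while the bright FN1 probe sets lie to the right.

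The sequences just before the gene starts are shown for the members whose brightest probe sets carry the higher and lower values, so that the promoters of FN1 and THBS1 can be read beside those of FBLN1 and TGFBI. Each is the 250 bases before the RefSeq start in GRCh38.p14, 5′ to 3′ along the gene, and 9 of the 10 members had an entry (LOXL2 had none). Capitals mark motif matches on either strand. The letters searched were TGACGTCA for the cAMP response element (CRE). The GC box was searched as GGGCGG, and its matches may overlap each other. The CCAAT and TATAA boxes were searched by the letters of their names.
FN1, chr2:215436069-215436318, strand minus: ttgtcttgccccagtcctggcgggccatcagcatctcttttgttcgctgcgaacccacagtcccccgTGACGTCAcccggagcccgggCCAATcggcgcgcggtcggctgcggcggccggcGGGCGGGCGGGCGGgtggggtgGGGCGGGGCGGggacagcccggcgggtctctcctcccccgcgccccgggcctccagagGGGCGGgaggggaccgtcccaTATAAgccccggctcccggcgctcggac
THBS1, chr15:39580829-39581078, strand plus: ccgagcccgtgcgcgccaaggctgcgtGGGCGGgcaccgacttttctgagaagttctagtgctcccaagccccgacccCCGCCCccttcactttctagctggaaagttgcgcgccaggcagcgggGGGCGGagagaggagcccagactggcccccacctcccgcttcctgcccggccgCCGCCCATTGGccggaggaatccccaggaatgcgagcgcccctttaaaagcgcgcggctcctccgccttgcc
FBLN1, chr22:45502633-45502882, strand plus: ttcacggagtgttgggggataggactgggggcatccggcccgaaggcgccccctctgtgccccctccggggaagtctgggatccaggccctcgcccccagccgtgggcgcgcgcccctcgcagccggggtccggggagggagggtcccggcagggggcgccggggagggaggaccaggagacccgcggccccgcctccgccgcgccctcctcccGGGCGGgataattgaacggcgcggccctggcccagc
TGFBI, chr5:136028738-136028987, strand plus: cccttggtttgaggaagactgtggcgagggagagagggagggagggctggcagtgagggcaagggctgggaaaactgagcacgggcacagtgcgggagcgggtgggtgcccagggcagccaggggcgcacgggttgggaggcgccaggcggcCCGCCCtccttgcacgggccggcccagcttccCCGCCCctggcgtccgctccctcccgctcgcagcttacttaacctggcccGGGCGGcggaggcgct
The FN1 window held 1 CRE starting at -183, 1 CCAAT at -162, 6 GC boxes and 1 TATAA at -28, counted from the RefSeq start. The THBS1 window held 4 GC boxes and 1 CCAAT on the opposite strand at -66. The FBLN1 window held 1 GC box, and the TGFBI window held 3. Of 35116 RefSeq promoter windows of the same length, 1.65% held the CRE, 32.0% CCAAT, 42.6% a GC box and 18.9% TATAA. Of the windows of the 9 members with an entry, FN1's was the one that held the CRE. None of them held TGANTCA (the AP-1 site, in 6.57% of all windows). TATAA was also present in the windows of TNC, THBS2 and VCAN, and CCAAT in 1 of the 3 LOX windows. These are matches of letters, and which start site Panc1 uses was not measured.

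FN1 had 7 probe sets, and 6 of them were higher on the syk array. The brightest, 210495_x_at, read 5.12 on mock and 6.32 on syk, a log2 difference of 1.19. The next, 216442_x_at, read 4.93 and 5.93, a difference of 1.0, and 211719_x_at read 4.59 and 5.81, a difference of 1.22 (1.04 with both arrays floored at 4.77). All 3 of these carry the suffix that the array's maker gives to sets whose probes may also match other sequences. The brightest set without that suffix, 212464_s_at, read 4.02 on mock and 4.79 on syk, with the mock value below 4.77 and the syk value barely above it. Its difference of 0.77 becomes 0.02 with both arrays floored at 4.77. The other 3 were dim on both arrays, with differences of 0.32 (214702_at), 0.22 (1558199_at) and -0.25 (214701_s_at). In 4 FN1 probe sets, signal was thus near the brightest bacterial control on the mock array and above it on the syk array. On the mock array, 2 of the 4 were already above it. Of the 4, 3 are open to cross-matching and the remaining one, 212464_s_at, was barely above it on the syk array.

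FBLN1 encodes fibulin-1, a calcium-binding glycoprotein that binds fibronectin, and its transcripts differ at the 3' end. Its brightest probe set, 202994_s_at, read 8.60 on mock and 7.37 on syk, a difference of -1.23. The probe set annotated with the record of transcript variant C (201787_at) read 7.26 and 5.52, a difference of -1.75. The one annotated with variant D (202995_s_at) read 7.10 and 5.34, a difference of -1.76. All 3 bright sets were thus lower on the syk array by more than 2-fold. The sets annotated with variants B (207834_at, 4.01 on mock and 4.58 on syk) and A (207835_at, 3.54 and 3.75) were at or below 4.77 on both arrays and were slightly higher on the syk array. Across the 4 FBLN1 probe sets past the brightness filter, which is a mean level of at least 4.25, the SD of the difference was 1.11. Pooled over 6028 genes, the SD of the difference among a gene's own sets was 0.35, a guide to probe behaviour that covers no variation between cultures.

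**Figure D2:**
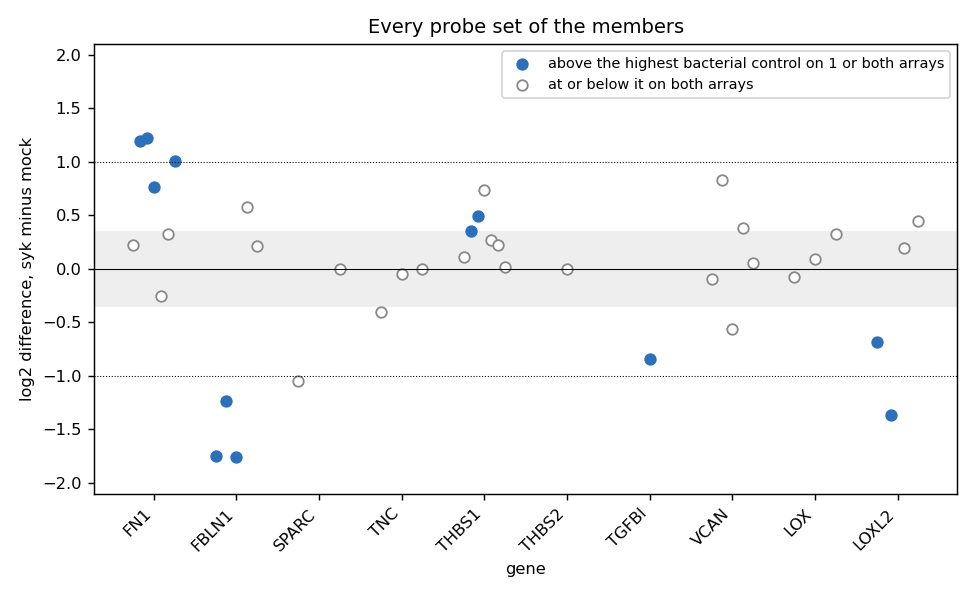
Log2 difference (syk minus mock, vertical axis) of every probe set of the 10 members (horizontal axis), filled where the probe set lay above 4.77 on 1 or both arrays and open where it did not. The grey band is the pooled SD of 0.35 either side of 0 and dotted lines mark 2-fold. The filled points of FBLN1 and LOXL2 lie below the band and those of FN1 above it.

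Of the matricellular members, SPARC, TNC and THBS2 gave only dim signal. For SPARC, which binds collagen and loosens cell adhesion, 200665_s_at read 4.63 on mock and 3.58 on syk. That difference of -1.05 passes 2-fold, but both values lie at or below 4.77, so no fold is given. The other SPARC probe set, 212667_at, read 2.73 on both arrays. TNC, which encodes tenascin C, a hexameric protein that interferes with adhesion to fibronectin, read between 2.65 and 3.34 in its 3 probe sets. Its brightest, 201645_at, differed by -0.40.

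Thrombospondin-1 (THBS1) inhibits angiogenesis and activates latent TGF-beta. All 7 of its probe sets were higher on the syk array, by 0.02 to 0.73. The 2 that lay above 4.77 read 5.01 on mock and 5.50 on syk (201109_s_at, a difference of 0.49) and 4.89 and 5.24 (201108_s_at, 0.35). The largest difference, 0.73 in 201110_s_at, came from values of 3.64 and 4.38. None of the 7 reached 2-fold, and since they share 1 RNA preparation per array, their common sign is no replication. The related thrombospondin-2 (THBS2) had 1 probe set, which read 3.47 on both arrays.

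Exact ties such as those of THBS2, SPARC 212667_at and TNC 237169_at (2.65 on both arrays) occurred in 2189 of all probe sets (4.0%). Of these tied probe sets, 78.7% had a mean below 4.25.

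TGFBI encodes a secreted adhesion protein of basement membranes and collagen fibrils, named for its induction by TGF-beta. Its only probe set, 201506_at, read 12.1 on mock and 11.2 on syk. The difference of -0.84 is 1.79-fold lower on the syk array and did not reach 2-fold. Of the 12814 genes past the filter, 5.48% had a difference as low as this or lower.

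VCAN encodes versican, a large chondroitin sulfate proteoglycan that binds hyaluronan. All 5 of its probe sets were at or below 4.77 on both arrays, with differences from -0.56 (211571_s_at) to 0.83 (204620_s_at, 3.16 on mock and 3.98 on syk). Versican signal therefore gave no direction.

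The lysyl oxidases parted in signal. LOX, the founding enzyme, read between 3.21 and 3.60 in all 3 of its probe sets, with differences of -0.07, 0.10 and 0.32. LOXL2, a relative with scavenger receptor domains that oxidises collagen IV, was bright in 1 of its 4 probe sets, 202998_s_at, which read 10.1 on mock and 8.76 on syk, a difference of -1.37. The next, 202997_s_at, read 5.48 on mock and 4.79 on syk, a difference of -0.69. The other 2 were dim on both arrays and were slightly higher on the syk array (differences of 0.19 and 0.45). LOXL2 is thus 2-fold lower by its bright probe set and lower by less in a second.

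With 1 probe set per gene, 5 members passed the brightness filter. Past the 2-fold line on the higher side was 1 (FN1), and on the lower side were 2 (FBLN1 and LOXL2). The shares over all 12814 genes were 3.61% on the higher side and 3.65% on the lower side, 7.26% in all. The median difference of the 5 was -0.84, beside 0.01 over all genes. Over their 13 probe sets past the filter it was 0.35, with 7 higher and 6 lower. LOXL2 lay among the lowest 1.83% of all genes and FBLN1 among the lowest 2.27%, FN1 among the highest 2.32% and THBS1 among the highest 15.9%. A count of 5 genes is too small to read against these shares, and passing the filter depended on the level. With the mean over a gene's probe sets in place of the brightest, 0 members passed 2-fold in either direction, dim probe sets then entering the mean. FN1 differed by 0.64 on that reckoning, FBLN1 by -0.79 and LOXL2 by -0.35. Without the probe sets marked as open to cross-matching, FN1 differed by 0.77 as measured and by 0.02 with the floor.

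**Figure D3:**
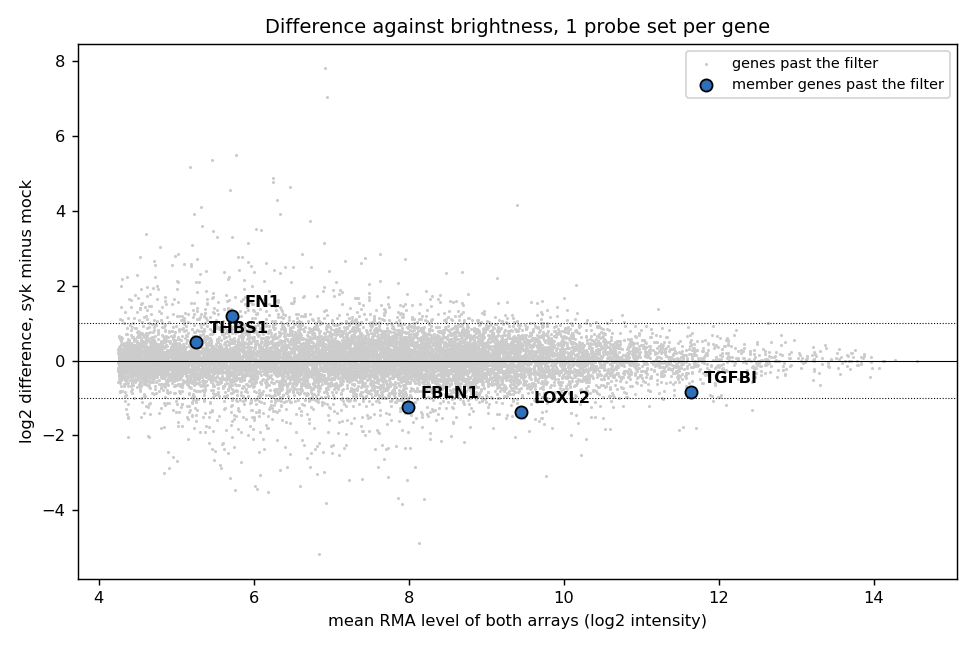
Log2 difference (syk minus mock, vertical axis) against the mean RMA level of both arrays (horizontal axis) for the 12814 genes past the filter (grey), with the 5 members that passed it in blue. FBLN1 and LOXL2 lie below the lower 2-fold line, FN1 above the upper one, and TGFBI and THBS1 between them.

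Among relatives of the members, values on the syk array lay mostly below those on mock by the brightest probe set of each gene. Of 13 fibulins, thrombospondins, SPARC relatives, lysyl oxidase-like enzymes and others past the filter, 12 differed below 0 and the median was -0.48. By 2-fold or more, 2 were lower and 1 higher, beside 3.65% and 3.61% of all genes. EFEMP1, SPOCK2, SMOC1, FSTL1, ACAN, BCAN and LOXL4 were below 0 on that reading but each had another set above 0 (0.06 to 0.40). THBS4, also counted below 0, lay at or below 4.77 on both arrays (4.37 and 4.25). Over all genes 47.8% differed below 0, and with both arrays floored at 4.77 the median of the relatives was -0.31. LOXL4, another lysyl oxidase-like enzyme, read 6.18 on mock and 4.66 on syk, at least 2.66-fold lower, although its other probe set differed by 0.40. THBS3, a pentameric thrombospondin, was 2.55-fold lower (7.29 and 5.94). EFEMP2, the fibulin-4 gene, which guides lysyl oxidase to elastic fibres, was 1.93-fold lower. The exception was SPOCK1, a testican proteoglycan related to SPARC, at 2.96-fold higher (8.79 on mock and 10.4 on syk). LOXL1 differed by -0.59.

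Other matrix glycoproteins outside these families went both ways, with a median of -0.23 over 20 genes. By 2-fold or more, 6 were lower (5 with both arrays floored at 4.77) and 2 higher, beside 3.65% and 3.61% of all genes. VWA1, which binds perlecan, was 5.15-fold lower (8.75 on mock and 6.39 on syk), and its 5 probe sets differed by -2.36 to -0.29. IGFBP7, a secreted protein of the basement membrane, read 8.16 and 5.90 in its brightest probe set, 4.78-fold lower, but its 3 sets ranged from -4.87 to 0.30. MFGE8, a secreted RGD protein, was 2.27-fold lower in 1 of its sets and nearly level in the other (-0.04). LTBP1, which holds latent TGF-beta in the matrix by binding fibronectin and fibrillin, was 2.37-fold higher (7.75 and 9.0), with 0.61 in its second probe set.

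Among receptors for the members, 14 of 18 past the filter were below 0, beside 47.8% of all genes, and the median was -0.27. By 2-fold or more, 1 was lower and 0 were higher, near the share over all genes (3.65% and 3.61%). Each gene was read by its brightest probe set. ITGB3, ITGB5, CD47 and CD44 were below 0 on that reading but each had another set above 0 (0.03 to 0.12). STAB1, also counted below 0, lay at or below 4.77 on both arrays (4.62 and 4.52). SDC2, a heparan sulfate proteoglycan that takes part in fibronectin assembly, was 3.34-fold lower (8.26 on mock and 6.52 on syk). The integrin subunits that make up the main fibronectin receptor were ITGA5, which read 7.97 and 7.88, and ITGB1, which read 12.1 and 11.5 in the brightest of its 7 probe sets (differences from -1.14 to 0). ITGAV differed by -0.69, the collagen-binding ITGA2 by 0.69, and PLAUR, the urokinase receptor, by -0.84.

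Enzymes of assembly and crosslinking had 2 of 23 genes at least 2-fold lower (1 with the floor) and 0 higher, beside 3.65% and 3.61% of all genes. Their median was -0.20. TGM2, the transglutaminase that crosslinks fibronectin and also serves as its co-receptor, was 5.54-fold lower (7.97 on mock and 5.50 on syk), although its 4 probe sets ranged from -2.47 to 0.19. P3H3, a collagen prolyl hydroxylase relative, was at least 1.60-fold lower, since its syk value of 4.17 lay below 4.77. The collagen chaperone SERPINH1 differed by -0.90, and CRTAP, a partner of prolyl 3-hydroxylase, by -0.80.

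Partners of versican and hyaluronan had 2 of 17 genes at least 2-fold lower and 0 higher, beside 3.65% and 3.61% of all genes. Their median was -0.08. ADAMTS15, a protease that cuts versican, was 3.01-fold lower (8.0 and 6.41), with 0.39 in its other probe set, and the link protein HAPLN3 was 2.14-fold lower. ADAMTS1, a versican-cutting protease as well, read 4.66 on mock and 5.49 on syk, at least 1.65-fold higher, and CEMIP2, a hyaluronan-degrading enzyme, differed by 0.73.

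TGF-beta induces several of the members, and whether its pathway bears on their values was not tested. The pathway list had 4 of 21 genes at least 2-fold lower and 1 higher, beside 3.65% and 3.61% of all genes. Its median was -0.44. The inhibitory SMAD6 read 7.19 on mock and 4.48 on syk, at least 5.36-fold lower, with -0.11 as the smallest difference among its 4 probe sets. The co-receptors TGFBR3 and ENG were 2.81-fold and 2.30-fold lower, although the other ENG probe set was equal on both arrays. The gene past 2-fold in the other direction was LTBP1, also counted above. The ligand TGFB2 read 8.11 on mock and 6.95 on syk. PMEPA1 went the other way (9.99 and 10.9), and its 3 probe sets differed by 0.33 to 0.92. Both genes were named after their values were seen.

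Proteases and inhibitors had 3 of 17 genes at least 2-fold lower and 1 higher, beside 3.65% and 3.61% of all genes. Their median was -0.09 (-0.06 with both arrays floored at 4.77). MMP1 read 3.27 on mock and 7.18 on syk, at least 5.33-fold higher. MMP2, a gelatinase that also cuts fibronectin, was 7.18-fold lower by the brightest of its 3 probe sets (9.03 and 6.18, with 0.16 in another). The inhibitor TIMP2 was 2.02-fold lower, and its 3 probe sets differed by -1.18 to -0.27. HTRA1, a secreted serine protease that cuts fibronectin, was 2.79-fold lower (6.29 and 4.81).

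**Figure D4:**
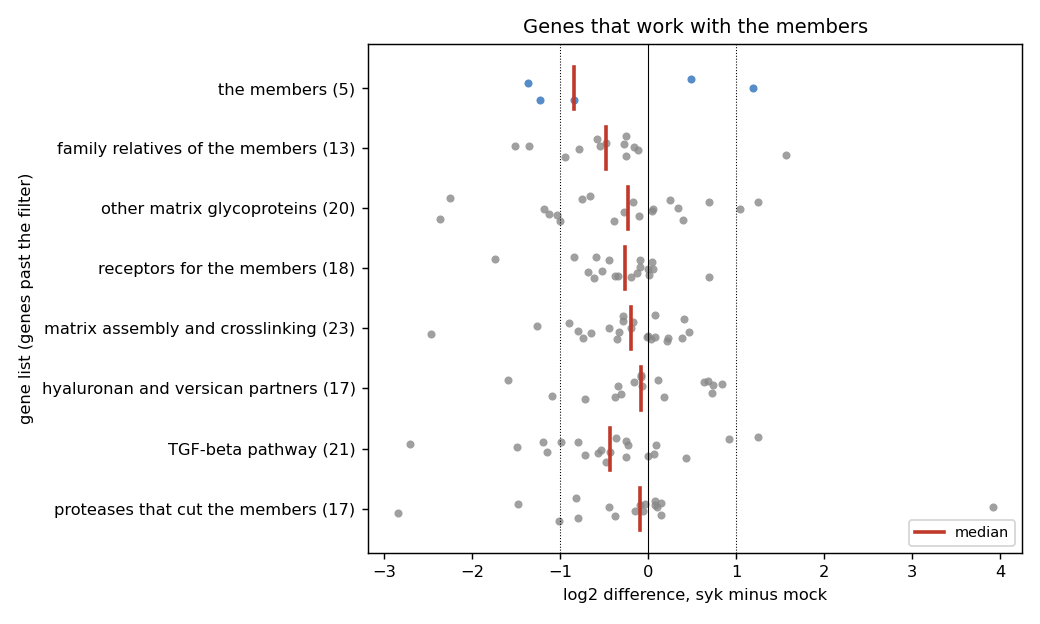
Log2 difference (syk minus mock, horizontal axis) of each gene past the filter in the members and in 7 lists of related genes (vertical axis, number of genes in brackets), with the median of each list as a red bar and 2-fold as dotted lines. Each gene is read by its brightest probe set. Each list median lies at or below 0, from -0.84 for the members to -0.08 for the versican and hyaluronan partners.

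The 2 arrays had medians of 4.26 and 4.24. RNA integrity was read from the 3' minus 5' signal of ACTB controls, which was 1.95 on mock and 2.37 on syk, and from that of GAPDH, which was 0.19 and 0.32. Its part in these results was not tested. All 11 ductal epithelial markers named on the array were past the filter, among them KRT18 (13.3 and 13.1) and KRT8 (11.1 and 10.3), and 5 of the 11 were at least 2-fold lower on the syk array, beside 3.65% of all genes. These were CDH1 (at least 2.98-fold lower), CLDN4 (a difference of -2.37), KRT19 (-1.45), CD24 (-1.22) and MUC1 (-1.04). The other probe set differed by 0.25 for CLDN4, -0.46 for CDH1 and -0.37 for KRT19. The 6 sets of CD24 ran from -1.46 to -1.16 and the 3 of MUC1 from -1.18 to -0.88. By the brightest set, 9 of the 11 markers were below 0 and 2 above it. The 2 were EPCAM (0.30) and SPINT1 (0.22, with -1.35 in its other set). Summed over the 11 markers, the log2 levels came to 93.1 on mock and 82.2 on syk. Of 12 fibroblast and stellate cell markers, 7 lay at or below 4.77 on both arrays, DCN, LUM, COL1A2, COL3A1 and PDGFRA among them, and the log2 levels of the 12 summed to 56.9 and 57.0. COL1A1 was the brightest of the others (11.2 and 10.1), and its 5 probe sets differed by -1.09 to -0.09. ACTA2 (5.18 and 4.44), THY1 (5.16 and 5.21) and RGS5 (4.96 and 5.75) lay above 4.77 on 1 or both arrays. DES read 4.75 and 4.77, next to the floor. All 7 endothelial, 5 leukocyte and 3 acinar markers named here were at or below 4.77 on both arrays, with log2 levels that summed to 26.6 and 27.4, 18.3 and 18.5, and 10.1 and 10.6. In a population average, fewer expressing cells and less RNA per cell cannot be told apart.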

How the data were processed

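RNA of the 2 populations was biotin-labelled from 100 ng total RNA, per the labels' protocols. The deposited table holds 1 RMA value per probe set and array. The submitters' processing notes name RMA without version or settings, and the authors' values, which run from 2.14 to 14.6, were taken as log2 intensities. The platform annotation gave the gene names, and in it 41097 had exactly 1 gene symbol. No detection calls were used here. The number of arrays limits the precision.

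Differences were computed with Python 3.11.15 and pandas 2.3.3. A gene took its probe set with the highest mean, and passed the filter when that mean reached the 50th percentile of all probe sets (4.25). A call was a log2 difference of 1 or more. The floor of 4.77 is the highest of the 27 bacterial control probe sets. Since the filter lies below it, 7.56% of the genes past the filter had both values at or below this floor. A fold against a value at or below it is given as "at least", and none where both values are. Alternatives were median centring, removal of a loess trend (span 0.2, statsmodels 0.14.6), the mean or median over probe sets, _at probe sets alone, no filter, a filter at the 75th percentile or on the brighter array, and the floor. Leaving out _x_at probe sets was added after seeing the data. Named are all members and up to 4 genes per list with the largest absolute difference past the filter. A few others (LOXL1, ITGA5, ITGB1, TGFB2, PMEPA1 and the cell type markers) were named after their values were seen. The members and lists were chosen with earlier results of these data known. The calculation was tested on simulated data. Promoter sequences are RefSeq's.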

Additional observations from a re-analysis of the deposited data

How the results depend on the processing

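No paired analysis was possible because each group has 1 array. On the syk array 1 member was higher and 2 were lower by 2-fold or more. The higher count was 0 under the mean or the median over probe sets, _at probe sets alone, the 75th percentile filter and leaving out _x_at probe sets. The lower count was 0 with the mean and 1 with the median over probe sets and with _at probe sets alone, and 3 without a filter and with the filter on the brighter array, SPARC entering with both values below the floor. The median difference of the members (-0.84) was -1.29 over 2 members with _at probe sets alone, -0.20 over all 10 without a filter and -1.23 over 3 under the 75th percentile filter. It stayed below 0 under each alternative run, all of which take 1 value per gene. Taken over probe sets instead, the median was 0.35 for the 13 past the filter and 0.10 for all 38. Over all genes, 462 were higher and 468 lower, against 284 and 278 by the mean of a gene's probe sets, 292 and 279 by their median, and 220 and 266 under the 75th percentile filter, which tests fewer genes. No member past 2-fold and past the filter changed sign under any alternative that gave it a value. FN1 had none with _at probe sets alone or the filter at the 75th percentile, and LOXL2 had none with _at probe sets alone.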
